A study of Homo sapiens with 21 samples.

Results

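The 10 genes described here are the cadherins CDH1, CDH2 and CDH11, the epithelial surface genes EPCAM and CLDN6, and the transcription factors SNAI1, SNAI2, TWIST1, ZEB1 and ZEB2 that act in epithelial to mesenchymal transition (EMT). They were chosen by name, and every transcript of these genes in the 6 deposited tables was taken. That gave 26 transcripts in 47 rows, out of 21537 transcripts of 11851 genes in 36579 rows. All 10 genes had at least 1 listed transcript, and 6 of the 10 had several.

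The libraries are poly-A RNA-seq of PGP1, an established human iPSC line, during its differentiation into cardiomyocytes with CHIR99021, an activator of Wnt signaling, followed by the Wnt inhibitor IWP4. Wild-type cells were sampled at 5 stages with 3 libraries each: iPSC, M for mesoderm, CMes for cardiac mesoderm, CP for cardiac progenitors and CM for cardiomyocytes. UBE2B-/-1 CM and UBE2B-/-2 CM, with 3 libraries each, are cardiomyocytes of the same PGP1 background that lack UBE2B, the enzyme that pairs with RNF20 to place ubiquitin on histone H2B. Each UBE2B-/- line was grown from picked and subcloned colonies of its own CRISPR experiment, so 1 line stands for 1 clone. The CMs were selected with lactate and taken from wells that beat. No such selection is described for the earlier stages, so from CP to CM selection and stage cannot be told apart. More UBE2B-/- cells than wild-type cells were plated before differentiation. Cell number at plating and genotype therefore cannot be told apart in the comparisons of the lines. Replicates were plates that started differentiation at different times. A replicate number shared between groups is not stated to mark a shared plate.

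Cadherins hold neighboring cells together by binding the same cadherin on the next cell, with catenins as their link to actin. CDH1 (E-cadherin) and EPCAM are typical of epithelia and of pluripotent colonies, while CDH2 (N-cadherin) is typical of mesoderm, neural tissue and heart muscle and CDH11 of mesenchyme. Cells that leave the primitive streak as mesoderm exchange the first cadherin for the second, and SNAI1 and ZEB factors are known to repress the CDH1 gene through the DNA sequence CAGGTG. Cardiomyocytes later use CDH2 at their intercalated discs.

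For each transcript the tables give an effect b in natural-log units with its standard error, a q-value and an average log level. No value per library is in them. Group means were therefore recovered from b and that average as normalized estimated counts, and the spread between the 3 replicates of a group is given as the residual standard deviation (SD) of the fit on the log2 scale. All changes were converted from b to the log2 scale and carry the standard error (SE) of the fit, with positive values for the later stage or the mutant being higher. Calls needed a q-value no larger than 0.05 and b of log2(1.5) or more in either direction, a 1.79-fold change since b is a natural log. The q-values come from the Wald test of Sleuth, with 6 libraries in a stage comparison and 9 in the fit of both lines with wild type. Transcripts above a q-value of 0.05 are not listed, and a missing transcript is not shown to be unchanged. A main transcript below is the coding one of highest level among those listed for a gene at the stages. Transcripts that were not listed may be higher. The depth of the libraries is unknown here, and the means cover 3 libraries without a counting interval.

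The labels of the stages were compared with defining markers. From CP to CM all 8 cardiomyocyte markers were called higher and their summed level went from 11582 to 446848 estimated counts. The 5 of 6 pluripotent markers that were listed were called lower and summed to 34388 and 353. LIN28A alone held 32425.5 of that sum in CP and 42.1 in CM, so the sum in CP rests mostly on 1 gene. Endoderm markers were also present, and all 6 were listed from CMes to CP, where their summed level went from 2768 to 31721. TTR alone held 16366 of that sum in CP. UBE2B itself had 1 listed transcript in line 1, a change of -1.91 (SE 0.53) with a q-value of 0.0113, and none in line 2.

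More transcripts of the 10 genes were called from M to CMes (15) than at any other transition. From iPSC to M, 8 transcripts of 5 genes were listed, of which 5 were called higher and 1 lower, while 1.24% and 1.62% of all tested transcripts were called higher and lower. From M to CMes all 10 genes were listed with 18 transcripts, of which 14 were called higher and 1 lower, beside 3.81% and 2.65% of all tested transcripts. At the CMes to CP transition 7 transcripts of 4 genes were listed and 2 were called, both lower, beside 3.8% higher and 2.63% lower over all tested. At the CP to CM transition 10 transcripts of 5 genes were listed, of which 4 were called higher and 6 lower, beside 8.25% and 6.99%.

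How many transcripts of the 10 genes were tested is not recorded, but GENCODE 44 annotates 130 of them. Of these 130, the transcripts called higher were 3.85% from iPSC to M and 10.8% from M to CMes, both above the share over all tested transcripts. Those called from CP to CM were 3.08% higher and 4.62% lower, and those from CMes to CP 1.54% lower. Since fewer than 130 may have been tested, these shares are lower bounds, and whether the later ones lie above or below the background cannot be told. The limit of 1.79-fold is stricter than the 1.5-fold change that the authors state as their limit. At 1.5-fold the 2 calls from CMes to CP become 4, with CDH2 higher and 3 CDH11 transcripts lower, the coding CDH1 transcript is called lower from M to CMes, and CLDN6 is called lower from iPSC to M and higher from M to CMes. In addition, the 3 calls of line 2 become 0 at a q-value of at most 0.01. When a t distribution on the residual degrees of freedom replaced the normal one of the Wald test, 0 transcripts of the 10 genes were called (smallest q-value 0.0685). All 47 rows had an unadjusted p under 0.05 with it. They were listed for a small p in the Wald test, so this adds no separate support.

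**Figure D1:**
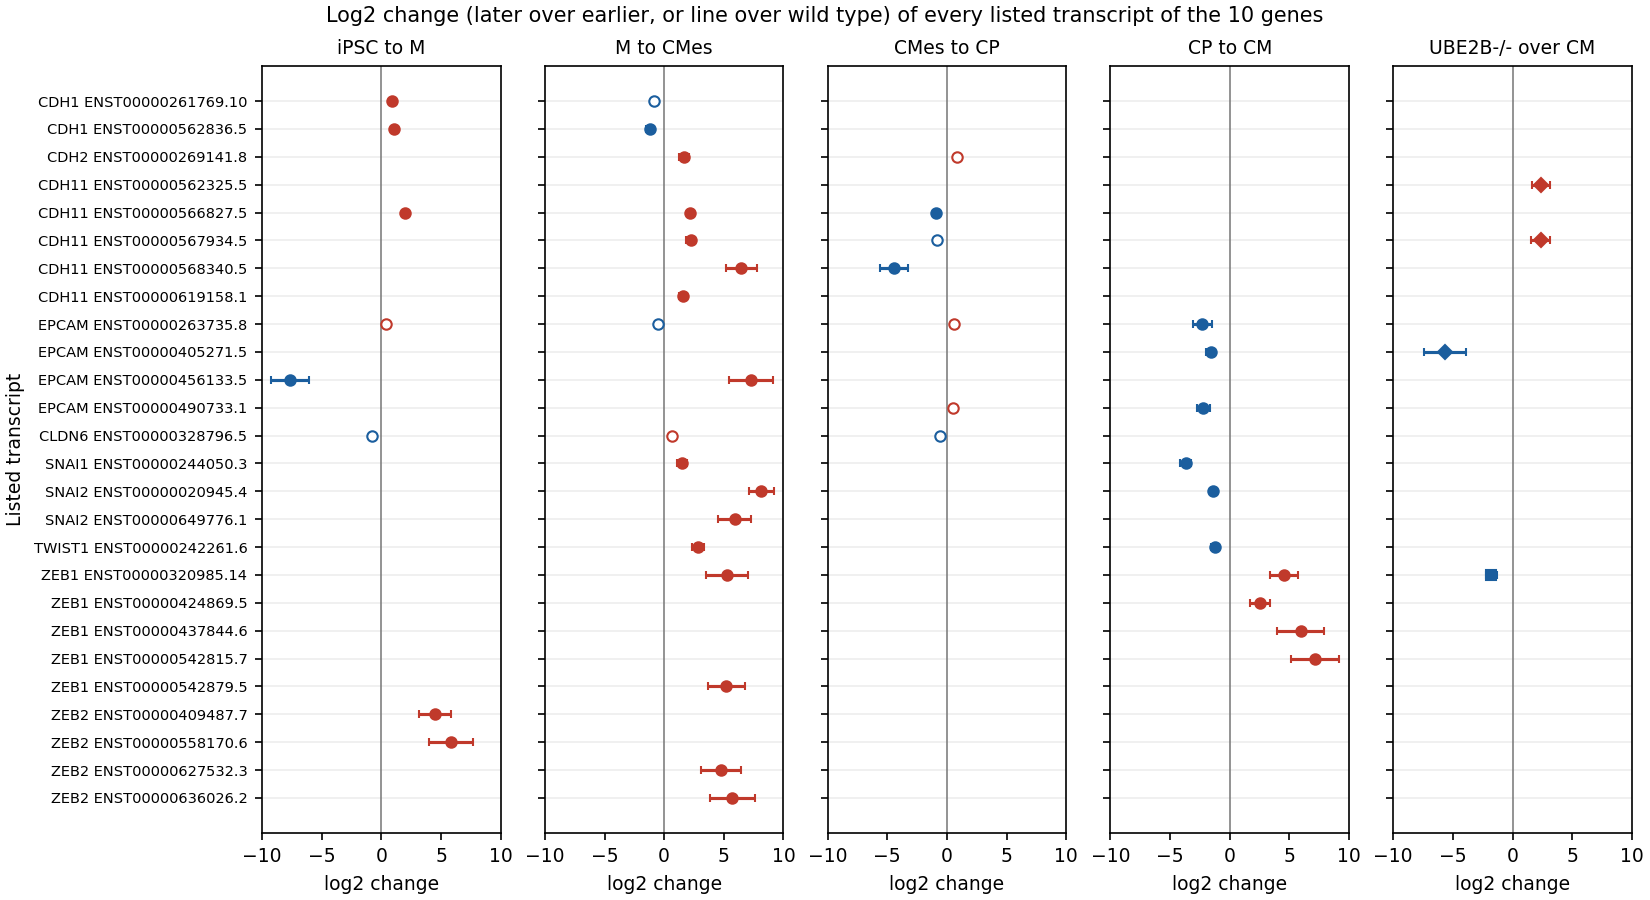
Log2 change with its standard error (horizontal axis, bars) for each of the 26 listed transcripts (rows) in each comparison. Filled symbols were called and open ones passed the q-value limit but not the limit of size, red is higher and blue is lower, and in the last panel squares are line 1 and diamonds line 2. The M to CMes panel holds the most transcripts, with 14 of 18 called higher.

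CDH1 rose from iPSC to M, and its shorter transcript then fell. The full-length coding transcript of CDH1 (ENST00000261769.10, 16 exons, 4811 bases; the gene lies on chromosome 16 of GRCh38, 68737292 to 68835537, plus strand) went from a mean of 5790 estimated counts in iPSC to 10811 in M. This is a change of 0.90 (SE 0.12, replicate SD 0.059) with a q-value of 2.97e-12 and was called. A second CDH1 transcript (ENST00000562836.5), which is annotated with no defined coding sequence, went the same way, from 1529 to 3167 estimated counts, a change of 1.05 (SE 0.13) that was also called. CDH1 was thus 1.87 and 2.07 times its iPSC level at the M stage, and both transcripts moved together. In bulk libraries a change in the number of cells that express a gene and a change in RNA per cell cannot be told apart.

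From M to CMes the shorter CDH1 transcript fell from 3387 to 1487 estimated counts, a change of -1.19 (SE 0.35) with a q-value of 0.0113. The coding transcript went from 11565 to 6472, a change of -0.84 (SE 0.13) with a q-value of 2.18e-09. Its fold of 1.787 lies just under the limit of 1.79, so it was not called, although its q-value was the smaller. On 1 scale, the level of the coding CDH1 transcript in CMes (6050) was close to that in iPSC (5790), with a difference of 0.06 on the log2 scale. CDH1 was not listed after CMes, so its levels in CP and CM are not known from these tables.

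EPCAM encodes an adhesion molecule of epithelia and pluripotent cells (chromosome 2, 47345158 to 47387601, plus strand), and it was the only one of the 10 genes with a level at all 5 stages. Its main coding transcript (ENST00000263735.8) went from 3599 estimated counts in iPSC to 4642 in M, 3167 in CMes, 4738 in CP and 972 in CM when all tables were placed on the scale of the iPSC to M table. The changes of 0.37 (SE 0.12), -0.55 (SE 0.12) and 0.58 (SE 0.14) at the earlier 3 transitions passed the q-value limit and were all too small to be called. The last change of -2.29 (SE 0.82) with a q-value of 0.0311 was called, and its replicate SD of 1.00 was the widest of the 4 comparisons.

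Of the other EPCAM transcripts, the coding ENST00000405271.5 fell from 1209 to 401 estimated counts from CP to CM (-1.59, SE 0.38) and the retained-intron transcript ENST00000490733.1 from 1563 to 340 (-2.20, SE 0.55). All 3 EPCAM transcripts listed at that transition were thus called lower. The transcript ENST00000456133.5, annotated as a target of nonsense-mediated decay, went from 99.7 estimated counts in iPSC to 0 in M and to 77.4 in CMes. Against a floor of 3 counts per library it was at least 33.2-fold lower in M than in iPSC and at least 25.8-fold higher in CMes than in M. This transcript moved against the main EPCAM transcript at both transitions. Technical variance is the part that arises in quantifying a library, from the sampling of reads and their assignment to transcripts. Its share is given of the variance behind the SE, which can exceed the observed spread between replicates. This share was 52.7% and 60.6% for ENST00000456133.5 there, against 19.6% and 14.8% for the main transcript.

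CLDN6 encodes a claudin of tight junctions that marks early embryonic epithelia and pluripotent cells (chromosome 16, 3014712 to 3020071, minus strand). Its coding transcript went from 7871 estimated counts in iPSC to 4643 in M, 7176 in CMes and 4920 in CP on 1 scale. The changes of -0.76 (SE 0.18), 0.63 (SE 0.16) and -0.54 (SE 0.17) had q-values of 0.00104, 0.00143 and 0.0184, and none was large enough to be called. CLDN6 and EPCAM had opposite signs at each of these 3 transitions, and these tables share the libraries of M and CMes.

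CDH2 rose from M to CMes. Its coding transcript (ENST00000269141.8, 16 exons; chromosome 18, 27932879 to 28177946, minus strand) went from 3082 estimated counts in M to 9971 in CMes, a change of 1.69 (SE 0.43, replicate SD 0.52) with a q-value of 0.00163. Its mean went on from 10034 in CMes to 17684 in CP, a change of 0.82 (SE 0.12) with a q-value of 6.46e-10 that was not called because its fold of 1.76 is under the limit. On 1 scale CDH2 was higher by 2.51 (log2) in CP than in M. CDH2 was not listed from iPSC to M, from CP to CM or in either line.

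CDH11 (chromosome 16, 64943753 to 65126112, minus strand) rose at the earlier 2 transitions. Its main transcript ENST00000566827.5, with 12 exons, went from 93.5 estimated counts in iPSC to 373 in M, a change of 1.99 (SE 0.21) with a q-value of 1.02e-18. It went from 399 in M to 1811 in CMes, a change of 2.18 (SE 0.20) with a q-value of 4.98e-24, the smallest q-value of any row of the 10 genes. Between CMes and CP it fell from 1823 to 949, a change of -0.94 (SE 0.26) with a q-value of 0.00473. Among the stages from iPSC to CP, this CDH11 transcript was highest in CMes, while the CDH2 transcript was higher in CP than in CMes. Neither level in CM is known.

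The other CDH11 transcripts listed from M to CMes were all called higher. ENST00000567934.5 went from 47.9 to 227 estimated counts (2.23, SE 0.40), and ENST00000619158.1, which is annotated with a single exon, went from 49.96 to 149 (1.57, SE 0.32). The short ENST00000568340.5 was at 0 in M and at 43.7 in CMes, at least 14.6-fold higher against the floor of 3 counts per library. It fell from 44.02 to 1.53 estimated counts from CMes to CP (-4.46, SE 1.19), a fitted value that depends on the 0.5 added before the log.

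Levels of different genes were set side by side per kilobase of annotated transcript. The coding CDH1 transcript had 1203 estimated counts per kilobase in iPSC, 2247 in M and 1258 in CMes. CDH2 had 717 in M, 2321 in CMes and 4091 in CP. CDH1 was thus 3.13 times CDH2 per kilobase in M, and CDH2 was 1.85 times CDH1 in CMes. The order of these CDH1 and CDH2 transcripts was exchanged between these stages. The intervals of 1 SE around both means do not overlap in either stage. The second CDH1 transcript (ENST00000562836.5), at 1148 per kilobase in M and 504 in CMes, is not part of this comparison. Nor are transcripts that were not listed, so the order of the whole genes is not known. The main CDH11 transcript had 39.0 per kilobase in iPSC, 156 in M, 707 in CMes and 368 in CP. Its mean was below that of the CDH1 and CDH2 transcripts wherever each is known. EPCAM had 3001 per kilobase in M and 2047 in CMes, so in CMes it and CDH2 did not differ beyond 1 SE. These are descriptions of means without a test between genes.

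**Figure D2:**
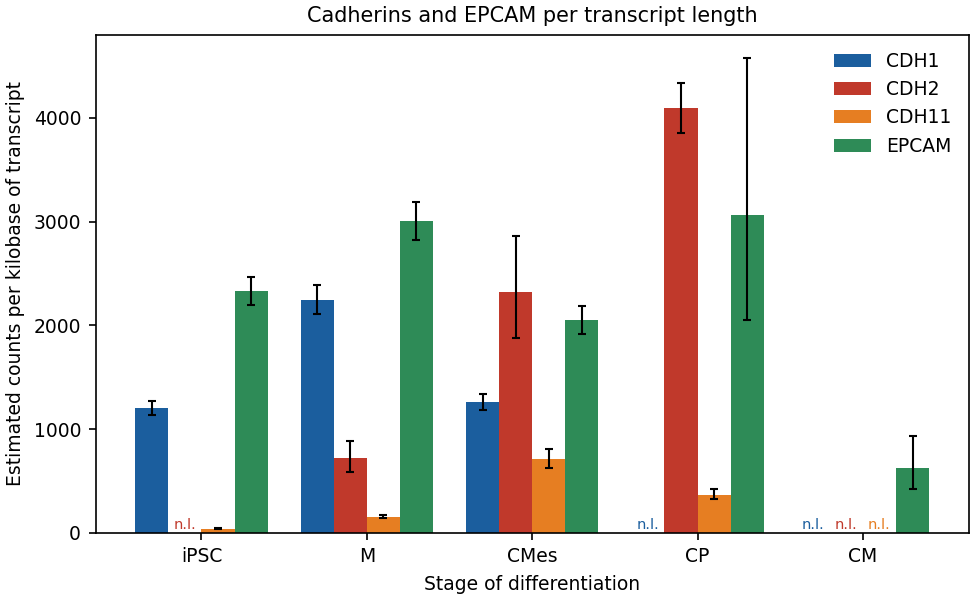
Estimated counts per kilobase of annotated transcript (vertical axis, from 0) for the main coding transcript of CDH1, CDH2, CDH11 and EPCAM at the 5 stages, with bars of 1 SE. A stage where a gene is not known is marked n.l. (not listed) and is not a 0. CDH1 is above CDH2 in M (2247 against 717) and below it in CMes (1258 against 2321).

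All 5 EMT transcription factors were called higher from M to CMes. SNAI1 encodes a zinc-finger repressor that acts in gastrulation (chromosome 20, 49982980 to 49988886, plus strand). It was already at 206 estimated counts in M and went to 593 in CMes, a change of 1.52 (SE 0.42, replicate SD 0.51) with a q-value of 0.00451. SNAI2, its relative that is prominent in neural crest and mesenchyme, went from 1.57 to 585, a fitted change of 8.14 (SE 1.06) with a q-value of 1.53e-12. A retained-intron SNAI2 transcript (ENST00000649776.1) was at 0 in M and at 29.8 in CMes, at least 9.92-fold higher. SNAI1 was thus already expressed in M, where SNAI2 had fewer than 3 counts.

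TWIST1 encodes a basic helix-loop-helix factor of mesenchyme (chromosome 7, 19020991 to 19117636, minus strand). It went from 16.8 estimated counts in M to 123 in CMes, a change of 2.83 (SE 0.54) with a q-value of 5.58e-06. ZEB1, a zinc-finger and homeodomain repressor (chromosome 10, 31318495 to 31529814, plus strand), went from 1.18 to 62.6 estimated counts in its coding transcript ENST00000320985.14, a fitted change of 5.23 (SE 1.76) with a q-value of 0.0344. A retained-intron ZEB1 transcript went from 1.43 to 71.2 (5.21, SE 1.54). The replicate SD of 2.15 for the coding ZEB1 transcript was over 3 times that of TWIST1 (0.66). With 1.18 counts in M, this SD depends on the 0.5 added before the log. Technical variance made up 34.9% of the variance behind the SE of this ZEB1 transcript and 33.8% for TWIST1.

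ZEB2 (chromosome 2, 144364364 to 144521057, minus strand) was the only EMT factor called from iPSC to M. The coding transcripts ENST00000409487.7 and ENST00000558170.6 went from 2.44 to 66.1 and from 0.374 to 48.9 estimated counts, fitted changes of 4.50 (SE 1.34) and 5.82 (SE 1.84) with q-values of 0.0201 and 0.0349. From M to CMes these were not listed, and 2 other coding ZEB2 transcripts were called higher, ENST00000636026.2 from 1.33 to 94.6 and ENST00000627532.3 from 2.45 to 78.0. Their q-values were 0.0323 and 0.0495. Technical variance made up from 62.9% to 79.1% of the variance behind the SE of the 4 ZEB2 transcripts. Whether the gene as a whole changed was not tested. ZEB2 was not listed after CMes.

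None of the EMT factors was listed from CMes to CP. Placed on 1 scale without a test, SNAI1 went from 555 to 394 estimated counts, SNAI2 from 547 to 713, TWIST1 from 115 to 125 and the coding ZEB1 transcript from 58.5 to 30.0. The changes from CP to CM then took opposite directions. SNAI1 fell from 375 to 28.3 estimated counts, a change of -3.71 (SE 0.46) with a q-value of 3.60e-14. SNAI2 fell from 679 to 257 (-1.40, SE 0.29, q-value of 2.05e-05) and TWIST1 from 119 to 50.2 (-1.23, SE 0.37, q-value of 0.00704). Compared with M, SNAI1 ended lower in CM by -2.68 (log2) and TWIST1 higher by 1.72, while SNAI2 in CM (269) stayed far above its level in M (1.44).

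ZEB1 rose from CP to CM in all 4 of its listed transcripts. The coding ENST00000320985.14 went from 28.5 to 674 estimated counts, a change of 4.54 (SE 1.19, replicate SD 0.27) with a q-value of 0.00139. The coding ENST00000542815.7 went from 1.78 to 326 (fitted change 7.16, SE 2.01) and ENST00000424869.5 from 14.1 to 84.0 (2.54, SE 0.86). ENST00000437844.6, annotated as a target of nonsense-mediated decay, was at 0 in CP and at 30.6 in CM, at least 10.2-fold higher. Technical variance made up 95.7% of the variance behind the SE of ENST00000320985.14 in this comparison. That variance was larger than its replicate SD of 0.27 would give. The 4 transcripts had the same direction.

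**Figure D3:**
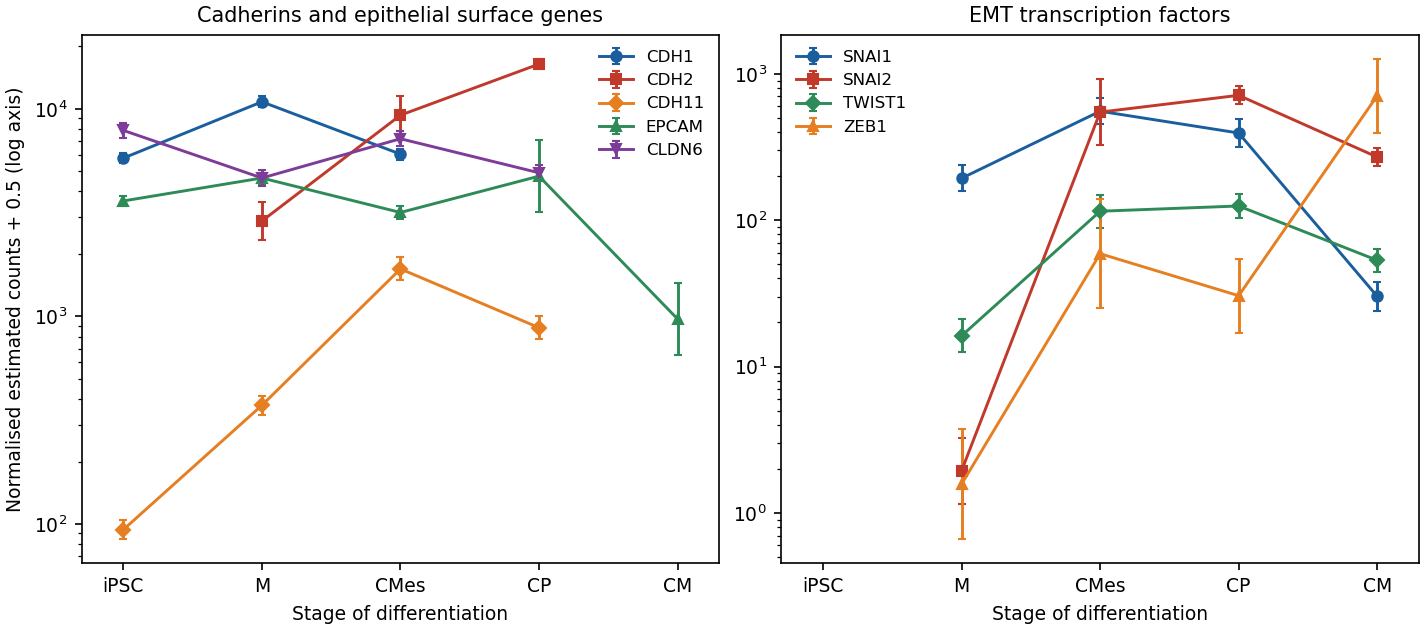
Normalized estimated counts plus 0.5 (log axis) of the main transcript of 9 of the genes at each stage where it is known, on the scale of the iPSC to M table, with bars of 1 SE (where 2 tables give a stage, the mean is shown with the larger SE). Among the stages where each is known, CDH1 is highest in M (10811), CDH11 in CMes (1693) and CDH2 in CP (16427), and from CP to CM ZEB1 goes up while SNAI1, SNAI2 and TWIST1 go down. ZEB2 is left out because no ZEB2 transcript is listed at 2 transitions.

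The CAGGTG sequence bound by SNAI and ZEB factors was looked for in RefSeq promoter windows on GRCh38.p14, from 250 bases before to 50 after a transcription start, which were at hand for 4 of the 10 genes (CDH2, CLDN6, ZEB1 and ZEB2). CAGGTG and its reverse complement CACCTG were searched, 1 strand of each window being enough for both. Of 35116 windows, 7231 (20.6%) held one. It was in the CLDN6 window and in 2 of 7 ZEB1 windows, and in neither CDH2 window nor the ZEB2 window. The sites are shown so that the sequence around each match can be read, with the motif in capitals and the strand of the gene read 5′ to 3′.

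CLDN6 (chr16:3018137-3018160, minus strand, 33 bases into the transcript): tctccttcgCAGGTGagtccgggg
ZEB1 (chr10:31318351-31318374, plus strand, 57 bases before a start): aggtgacagCAGGTGagggccggg
ZEB1 (chr10:31318966-31318988, plus strand, 242 bases before another start): ccccaccaCACCTGaggaaaact
ZEB1 (chr10:31319122-31319145, plus strand, 85 bases before that start): gtcgtaaacCAGGTGcggtgggga
ZEB1 (chr10:31319240-31319263, plus strand, 34 bases into that transcript): ggatggcccCAGGTGtaagcgcag

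In the CLDN6 site and the ZEB1 site 85 bases before a start, the letters CAG are the last bases of an annotated exon of that gene, so there the sequence is also a splice donor. A match is a description and not a bound site.

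The genes around these were counted from 6 lists of related genes, with the listed transcript of highest mean speaking for a gene. Over all listed genes, 23% were called higher and 31.5% lower from iPSC to M, 36.6% and 26% from M to CMes, 29.2% and 24.1% for CMes to CP, and 40% and 35.5% for CP to CM. Of the 10 genes themselves, counted in this way, 3 were called higher from iPSC to M (CDH1, CDH11 and ZEB2) and 0 lower by the Wald test of Sleuth. From M to CMes 7 of 10 were called higher and 0 lower. The remaining 3 (CDH1, EPCAM and CLDN6) passed the q-value limit, which holds every listed gene at an unadjusted p under 0.05, but not the limit of size.

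Epithelial regulators and surface proteins other than the 10 genes changed direction at each transition. Of 18 such genes, RAB25 alone was called from iPSC to M among 5 listed, higher as CDH1 was (1.11, SE 0.22). From M to CMes 6 of 9 listed were called lower, led by CDS1 (-1.11, SE 0.20), and GRHL3 alone higher, the transition at which CDH1 was also lower. From CMes to CP all 7 listed were called higher, and EPCAM had a positive change there. At the last transition all 6 listed were called lower, led by the epithelial factor GRHL2 (-1.73, SE 0.37), together with EPCAM. The median change of the listed genes was 1.55 from CMes to CP and -2.63 from CP to CM, where the medians over all listed genes were -0.36 and 0.55.

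Tight junction and polarity genes followed a like course at the later stages. Between CMes and CP 9 of 17 listed were called, all higher, led by cingulin (CGN, 1861 to 5983 estimated counts). In CM against CP 11 of 16 listed were called lower and 3 higher, led by CLDN10 (-7.52, SE 0.80) among the lower. At these later transitions endoderm markers moved with EPCAM and both lists. From CMes to CP 4 of 6 were called higher and 1 lower, and from CP to CM 4 of 4 listed were called lower. The summed level of those 4 was 16552 in CP and 586 in CM, of which TTR alone held 14492.5 and 515.9. Earlier they did not move with EPCAM. From M to CMes 4 of 4 listed endoderm markers were called higher, where EPCAM had a change of -0.55. From iPSC to M 1 of 3 listed was called higher and 2 lower, where EPCAM had a change of 0.37. The part of the endoderm markers in the EPCAM values was not tested.

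The partners of the cadherins rose with CDH2 from M to CMes. Of 13 catenins and nectins, 7 of 7 listed were called higher there, among them CTNNB1 (beta-catenin) and CTNND1 (p120-catenin), and 4 of 6 listed were called lower from iPSC to M, where CDH2 was not listed. NECTIN3 led in both comparisons, with -1.70 (SE 0.19) and then 1.30 (SE 0.18). Later, from CP to CM, 4 were called higher and 3 lower, and CTNNA3, the alpha-catenin of the heart, went from 114 to 4038 estimated counts (5.14, SE 0.24). Among 18 other classical and type II cadherins, 7 of 8 listed were called higher from M to CMes and CDH3 (P-cadherin) alone lower (-1.05, SE 0.12), in the same direction as CDH1. From CMes to CP 4 were called higher and 5 lower, with a median change of -0.93. CDH6 led the higher ones, at 62.5 and 1301 estimated counts (4.37, SE 0.29), and CDH22 the lower ones, from 133 to 0, at least 44.4-fold lower.

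Other EMT transcription factors included EOMES, which acts in the primitive streak and was represented by a different transcript at each of the earlier transitions. ENST00000461503.2 went from 5.39 estimated counts in iPSC to 1392 in M (7.88, SE 0.92), ENST00000449599.3 from 0 in M to 34.0 in CMes, and ENST00000295743.8 from 2549 in CMes to 107 in CP (-4.57, SE 0.25). In CM 8 of 9 listed factors of this list were called lower, led by MSX1 (-3.74, SE 0.36), in the direction of SNAI1, SNAI2 and TWIST1 and against ZEB1. TCF12 alone was higher there.

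Mesenchymal products, the collagens, receptors and matrix genes that EMT factors are known to accompany, were called lower more than higher from iPSC to M (4 and 2 of 10 listed), where CDH11 rose. From M to CMes 13 of 13 listed were called higher, with a median change of 3.54, or 2.96 with genes at 0 in M set to their floor, where the median over all listed genes was 0.50. ITGA5, the fibronectin receptor subunit, led (3.54, SE 0.13). From CMes to CP, where CDH11 was called lower, 10 of 14 listed were called higher and 2 lower, led by LUM (7.51, SE 0.26) among the higher. At the last transition 10 of 16 listed were called lower and 4 higher, led by PDGFRB (-4.51, SE 0.44). The fibroblast markers, all 8 of which are also on this list, were called higher in 5 of 5 listed from M to CMes, higher in 5 and lower in 1 of 6 from CMes to CP, and lower in 5 and higher in 2 of 7 from CP to CM. Their summed level over the transcripts listed from CMes to CP went from 6915 to 80896 estimated counts. Sums at the other transitions rest on other transcripts (for COL1A1, ENST00000507689.1 with 57.3 counts in CMes in place of ENST00000225964.9 with 1609) and are not comparable with these. Their part in the fall of SNAI1, SNAI2 and TWIST1 was not tested.

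**Figure D4:**
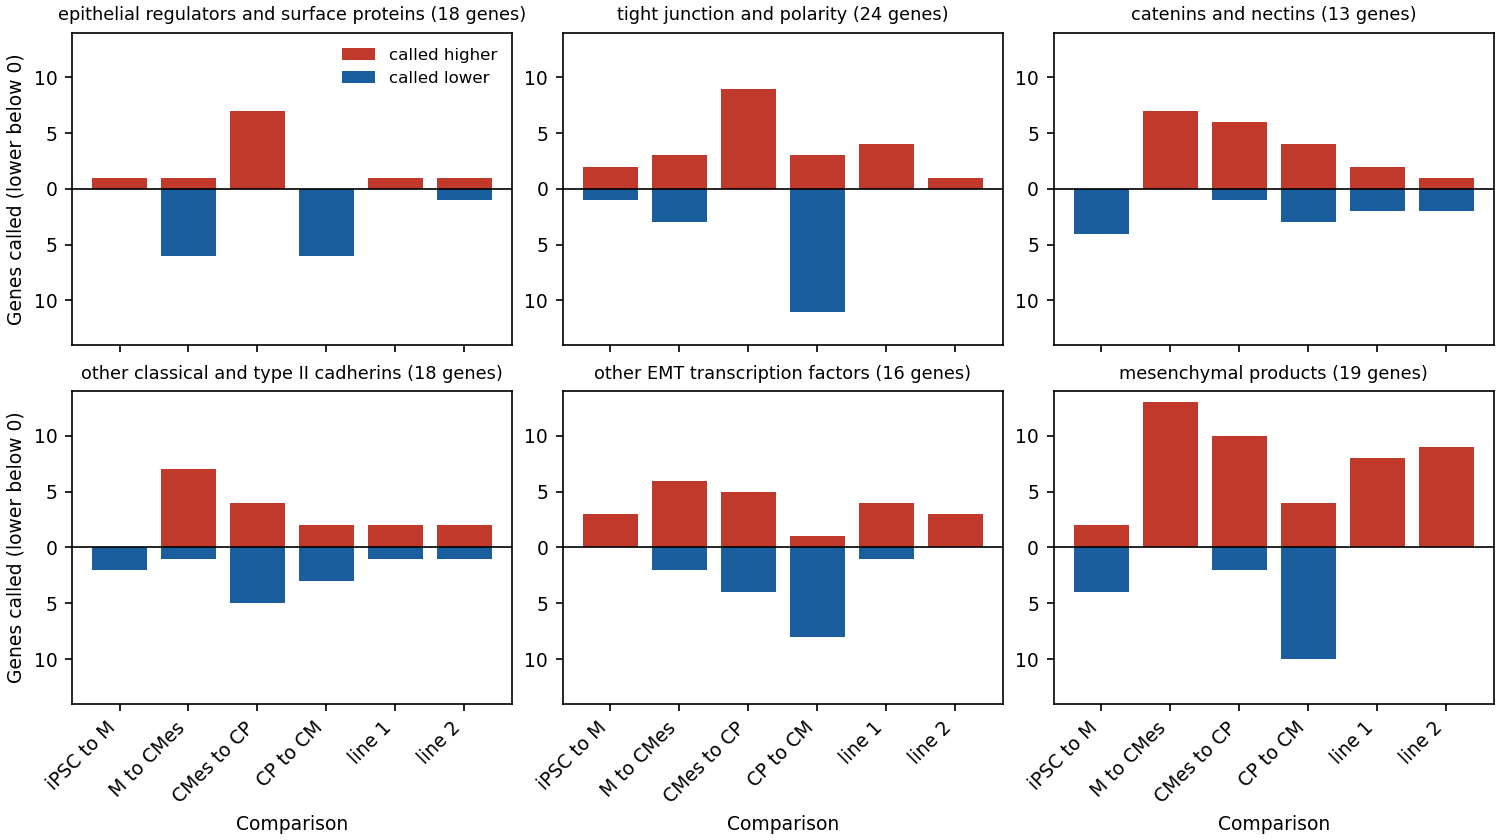
Number of genes called higher (red, above 0) and lower (blue, below 0) in each of the 6 lists for the 4 transitions and both UBE2B-/- lines. The epithelial list has 6 lower from M to CMes, 7 higher from CMes to CP and 6 lower from CP to CM, and the mesenchymal list has 13 higher from M to CMes and 8 and 9 higher in the lines.

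For the genes listed in at least 3 tables, the genes with the most similar changes were found by the Euclidean distance of their log2 changes among transcripts listed in the same tables. Nearest to CDH11 (676 candidates, 3 transitions) were MACROH2A2 at a distance of 0.51, KCNG1 at 0.64 and ROR2 at 0.95. Nearest to EPCAM (391 candidates, 4 transitions) were IMPDH2 at 0.78, RPL13A at 0.83 and PHGDH at 0.99. Nearest to CLDN6 (676 candidates, 3 transitions) were ACIN1 at 0.09, SRSF3 at 0.15 and GTF2I at 0.16. Nearest to ZEB1 (426 candidates, 2 transitions and line 1) were MYL4, an atrial myosin light chain, at 1.11, SORBS2 at 2.06 and AC084357.3 at 2.14.

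In UBE2B-/- cardiomyocytes few transcripts of the 10 genes were called. In line 1, 1 transcript was called, lower than wild type, beside 2.18% of all tested transcripts higher and 1.72% lower. In line 2, 2 were called higher and 1 lower, beside 2.46% and 1.53%. No transcript was called in both lines, where 1.52% of all tested were called higher in both and 0.909% lower in both. Of the 130 annotated transcripts these are 0.769% lower in line 1, and 1.54% higher and 0.769% lower in line 2, which are again lower bounds of the share of tested ones. CDH1, CDH2, CLDN6, SNAI1, SNAI2, TWIST1 and ZEB2 were listed in neither line.

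For a transcript listed for 1 line, its change in the other was solved from the variance over the 9 libraries, which has 2 solutions. For ZEB1 and EPCAM the wild-type mean from the CP to CM table picked 1 of them, to within 0.001 on the log2 scale. The coding ZEB1 transcript ENST00000320985.14 had 778 estimated counts on average in wild-type CM, 228 in UBE2B-/-1 CM and 334 in UBE2B-/-2 CM. Its change in line 1 was -1.77 (SE 0.47, replicate SD 0.57) with a q-value of 0.00695, and the solved change in line 2 was -1.22 with an unadjusted p of 0.00892 in the Wald test. Of the 4 transcripts listed for a line, it was the only one with an unadjusted p under 0.05 in both. The difference between the lines, from the solved change, was 0.55, with a 95% interval that includes 0 (-0.36 to 1.46). This ZEB1 transcript, 1 of the 4 that had risen from CP to CM, thus had a lower mean in both lines. The others were listed in neither line, so the change of the gene as a whole is not known.

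EPCAM ENST00000405271.5 averaged 463 estimated counts in wild-type CM, 51.7 in UBE2B-/-1 CM and 8.81 in UBE2B-/-2 CM. The change in line 2 was -5.64 (SE 1.78, replicate SD 2.18) with a q-value of 0.0366, and the solved change in line 1 was -3.15 with an unadjusted p of 0.0763. Line 2 differed from line 1 by -2.49 (95% interval -5.97 to 1.00). The direction was that of the fall of EPCAM from CP to CM, and technical variance made up 52.4% of the variance behind the SE. The main EPCAM transcript was listed in neither line.

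CDH11 was higher in line 2 in ENST00000562325.5 (2.40, SE 0.76, q-value of 0.0363) and ENST00000567934.5 (2.35, SE 0.76, q-value of 0.0462). No wild-type mean was at hand to pick a solution, but in line 1 both solutions were above 0, at 1.03 or 1.37 for the first transcript and 1.09 or 1.26 for the second, with unadjusted p between 0.0704 and 0.172. For ENST00000567934.5 the means were 158 or 164 estimated counts without the mutation, 377 or 350 for line 1 and 805 or 835 for line 2. The difference between the lines had an interval that includes 0 under each solution. The main CDH11 transcript was listed in neither line.

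**Figure D5:**
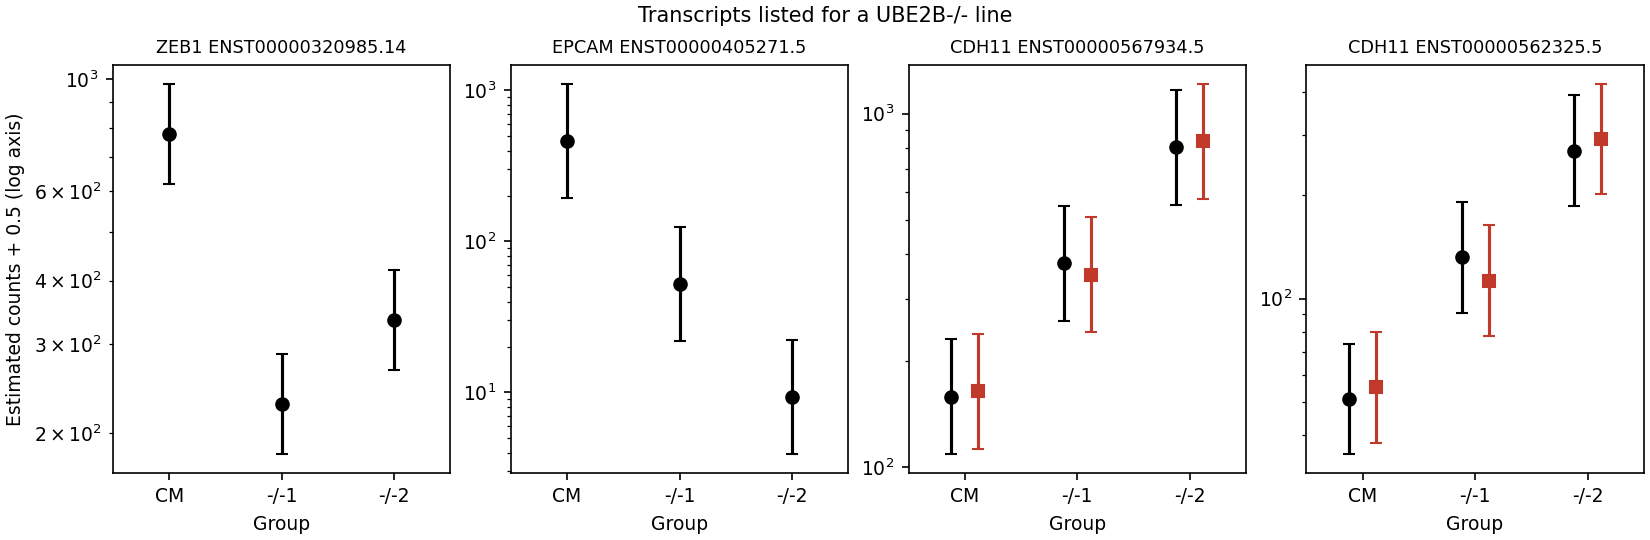
Estimated counts plus 0.5 (log axis) in wild-type CM and both UBE2B-/- lines for the 4 transcripts of the 10 genes listed for a line, with bars of 1 SE. The ZEB1 and EPCAM transcripts shown have means below wild type in both lines, at 228 and 334 against 778 for ZEB1. For CDH11 the black circles and red squares are the 2 solutions, and both place the lines above wild type.

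Related genes were counted in the lines as well. Over all listed genes, 46.7% were called higher and 32.8% lower in line 1, and 51.7% and 28.5% in line 2. Of 19 mesenchymal products, 8 of 8 listed were called higher in line 1 and 9 of 9 in line 2, led in both by COL3A1, a collagen of fibroblasts, at 3.51 (SE 0.79) and 4.81 (SE 0.79). The median change of the listed products was 3.18 and 3.94, where the medians over all listed genes were 0.76 and 0.87. CDH8 was lower in both lines (-1.76 and -1.82, SE 0.41) and CDH17 was higher in both. CDH24 was higher in ENST00000485922.2 in line 1 and in another transcript, ENST00000487137.6, in line 2. The catenins were split. In both lines CTNNB1 was lower in ENST00000396183.7 (-1.29 and -1.22, SE 0.22), while ENST00000349496.11 spoke for it from M to CM. CTNNA3 was lower in both lines. CTNND1 was higher in both in ENST00000529986.5 (fitted changes of 12.8 and 11.7, SE 0.77), whose counts are not given here. Where a mean is near 0, such a fitted value depends on the 0.5 added before the log. Another transcript, ENST00000358694.10, spoke for CTNND1 from M to CMes and from CP to CM. NECTIN2 was called higher in line 1 in ENST00000252483.10 (1.79, SE 0.45). In line 2 it was represented by ENST00000252485.8, which was higher but too little to be called (0.63, SE 0.19, q-value of 0.0261). Its difference between the lines was not tested. Both lines were compared with the same 3 wild-type libraries, so these values are not independent.

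Cell type markers differed between the mutants and wild type in the same comparisons. Cardiomyocyte markers were called lower in 5 of 5 listed in line 1 and 6 of 6 in line 2, and the summed level of the 5 listed for both lines was 103521 in the wild-type libraries, 30531 for line 1 and 27748 for line 2. Fibroblast markers were called higher in 3 of 3 listed and 5 of 5 listed, and the 2 listed for both lines (COL3A1 and DCN) summed to 7399, 84867 and 208832. The epicardial marker TCF21 averaged 0.442 estimated counts in wild type and reached 141 and 214 in lines 1 and 2, and no pluripotent marker was listed. The part of these differences in the values of ZEB1, EPCAM and CDH11 was not tested.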

How the data were processed

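Poly-A RNA-seq of 15 wild-type and 6 UBE2B-/- libraries of PGP1 cells was used, with groups taken from the sample labels. After trimming with the FASTX-Toolkit, the authors ran Kallisto on hg38 and then the Wald test of Sleuth. The authors deposited p-values and q-values for transcripts with a q-value up to 0.05. The deposited effect b, its error and the average level are in natural log units, and the deposited variance columns are scores in squared units of that log. The tables hold 0 columns of per-sample values, so depth is unknown and precision is the standard error of the fit.

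Tables were read with pandas 2.3.3 in Python and tested with SciPy 1.17.1. How many transcripts each comparison tested (65457 to 71328) follows from the p-value, q-value and rank of listed ones. Tables that share a stage were aligned by the median difference of its mean over transcripts with at least 100 estimated counts. The solution for an unlisted line was checked on simulated data. Coordinates, lengths and transcript types came from GENCODE 44 on GRCh38, matched without the version of the identifier. All transcripts of the 10 genes are named. Related genes are those of largest absolute z on a list, or whole lists of 3 or fewer calls; a few others were named after their values were seen (such as CTNNB1, CTNND1, NECTIN2, COL1A1, DCN and TCF21). The leading gene of 1 list is not reported here. The 10 genes and the lists were chosen with earlier results of these data known. Alternatives were other limits on b and q, a t distribution, a minimum mean of 10 estimated counts, another offset and another choice of transcript.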

Additional observations from a re-analysis of the deposited data

How the results depend on the processing

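No paired analysis was possible because the tables hold no values per library, and for the same reason no replicate could be left out. The test of the difference between the lines, planned for transcripts listed for both, had no transcript of the 10 genes to run on, adjusted or not. From CMes to CP the count of 2 called transcripts became 4 with an absolute b of at least ln(1.5), 7 with no limit on b and 1 with a mean of at least 10 estimated counts. In line 2 the count of 3 became 0 at a q-value of at most 0.01. A t distribution on the residual degrees of freedom (4 for stages, 6 for the lines) in place of the normal gave 0 calls for the 10 genes in every comparison. All 47 rows had an unadjusted p under 0.05 with the t distribution (largest 0.0490), which their listing by the Wald test made likely beforehand. The t distribution gave 0, 0, 1 and 561 calls over all transcripts at the 4 transitions and 0 in each line. Taking the transcript with the smallest q-value turned EPCAM from iPSC to M to -7.65 and kept the direction of the other 26 values. The larger count for the offset moved none of 68 levels by more than the spread between replicates.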
